A study of Mus musculus with 6 samples.

Results

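The T cell receptor signalling machinery is the set of proteins that carry the antigen signal from the receptor at the cell surface to calcium, Ras and NF-kB. It was followed here through 35 genes, chosen by name: CD3 and CD8 chains, the kinases nearest the receptor, adaptors, and negative regulators. All 35 were found among the 49671 genes counted, each under a single Ensembl identifier. RNA was sequenced from mouse CD8 T cells of the OT-I strain, which carry a transgenic receptor for the ovalbumin peptide SIINFEKL. There were 3 libraries labelled CD73 KO and 3 labelled WT. All 6 came from splenic CD8 T cells that received the peptide daily for 5 days at 10 ng/mL, with IL-7 and IL-15 at 5 ng/mL each, and that were replated after 48 h. Live cells were then sorted. The labels call the treatment exhaustion. Every sample had thus been stimulated repeatedly through the receptor, and none analysed here was a resting control. CD73 is the product of Nt5e, an enzyme on the outer membrane that turns AMP into adenosine. The labels state neither how the CD73 KO allele was made nor the age of the mice, nor whether replicates stand for different animals, or different cultures. P-values therefore measure the spread between these libraries, which may be technical.

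When the receptor binds peptide on MHC class I, the CD8 coreceptor brings the kinase Lck to the CD3 and zeta chains. Lck phosphorylates their tyrosine motifs, Zap70 docks there, and Zap70 phosphorylates the scaffold Lat and the adaptor Lcp2 (SLP-76). This assembly activates phospholipase Plcg1 and the exchange factor Vav1. The diacylglycerol that Plcg1 makes recruits Rasgrp1 and Prkcq, which lead to Ras and, through Bcl10 and Malt1, to NF-kB. Phosphatases, ubiquitin ligases, diacylglycerol kinases and Csk oppose these steps.

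Libraries held 6934150 to 19382950 counts, and the 3 CD73 KO libraries were deeper on average. Nt5e, the targeted gene, was counted 69, 128 and 88 times in CD73 KO replicates 1 to 3, and 290, 49 and 263 times in WT replicates 1 to 3. Scaled for depth, these are 3.67, 8.45 and 8.47 CPM (counts divided by the library's scaled total) beside 22.6, 5.22 and 37.4 CPM, a log2 fold change of -1.67 ± 0.72 (SE, edgeR adjusted p = 0.534). The library labelled WT replicate 2 lay within the CD73 KO range, which goes against its label. Without it, 34 of the 35 genes had log2 fold changes between -0.11 and 0.38 and Tagap had 0.98. The sign turned for Lat (to -0.02) and Lcp2 (to 0.05), and single values without it follow for the genes described at length. Other genes and marker sums are given with all 6 libraries. The CD8 T cell identity was visible in every library: Cd8a had 6182 to 15095 counts, Cd3e 3407 to 11378, Trac 3396 to 10675 and Thy1 7835 to 20164, while Cd4 had 0 to 5. Eomes, a transcription factor of CD8 T cells that was among the defining genes, was low in some libraries (18 to 387 counts).

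None of the 35 genes passed the test between genotypes. Apart from Tagap, with a log2 fold change of 1.04, they lay between -0.17 and 0.31, where a positive value means higher in CD73 KO. By edgeR's quasi-likelihood test, with p-values adjusted by Benjamini-Hochberg over the 12242 genes tested, 0 of 35 had an adjusted p under 0.05 (0.0572% of all tested genes did). The lowest adjusted p among them was 0.135. limma-voom also called 0, and DESeq2 called 1, Tagap. At an unadjusted p under 0.05 there were 2 of 35, Tagap and Dgka, or 5.71%, against 9.64% of all tested genes. Both were higher in CD73 KO, as were 5.75% of all tested genes, and 0 were lower, as were 3.89%. Of the 35, 25 had a log2 fold change above 0 (71.4%, against 52.3% of all tested genes) and 10 below. Of tested genes in the members' range of mean level, 3388 of 7359 were above 0. The members share each library's RNA and depth, and the direction of the list was not tested. The members' median log2 fold change was 0.11, beside 0.01 over all tested genes and -0.02 over those in that range. It was 0.11 without the library labelled WT replicate 2. Leaving out CD73 KO replicate 1 gave 0.04, and leaving out WT replicate 3 gave 0.07.

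The counts were deep enough to bound most of these genes. Each member had at least 89 counts in every library and passed the filter on low counts. The 95% interval of the fold change lay within 1.5-fold in both directions for 29 of 35 (82.9%), against 57.6% of all tested genes and 83.2% of tested genes in the same range of mean level. It lay within 2-fold for 34 of 35 (97.1%), against 82.7% of all tested genes. Of tested genes in the same range of mean level, 7156 of 7359 had it within 2-fold. The 6 whose interval reached past 1.5-fold were Tagap, Themis, Txk, Cbl, Cblb and Pag1. A fold change of at least 1.5 was seen for 1 member, Tagap (2.86%), against 6.88% of all tested genes and 1.92% of those in the same range of level.

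**Figure D1:**
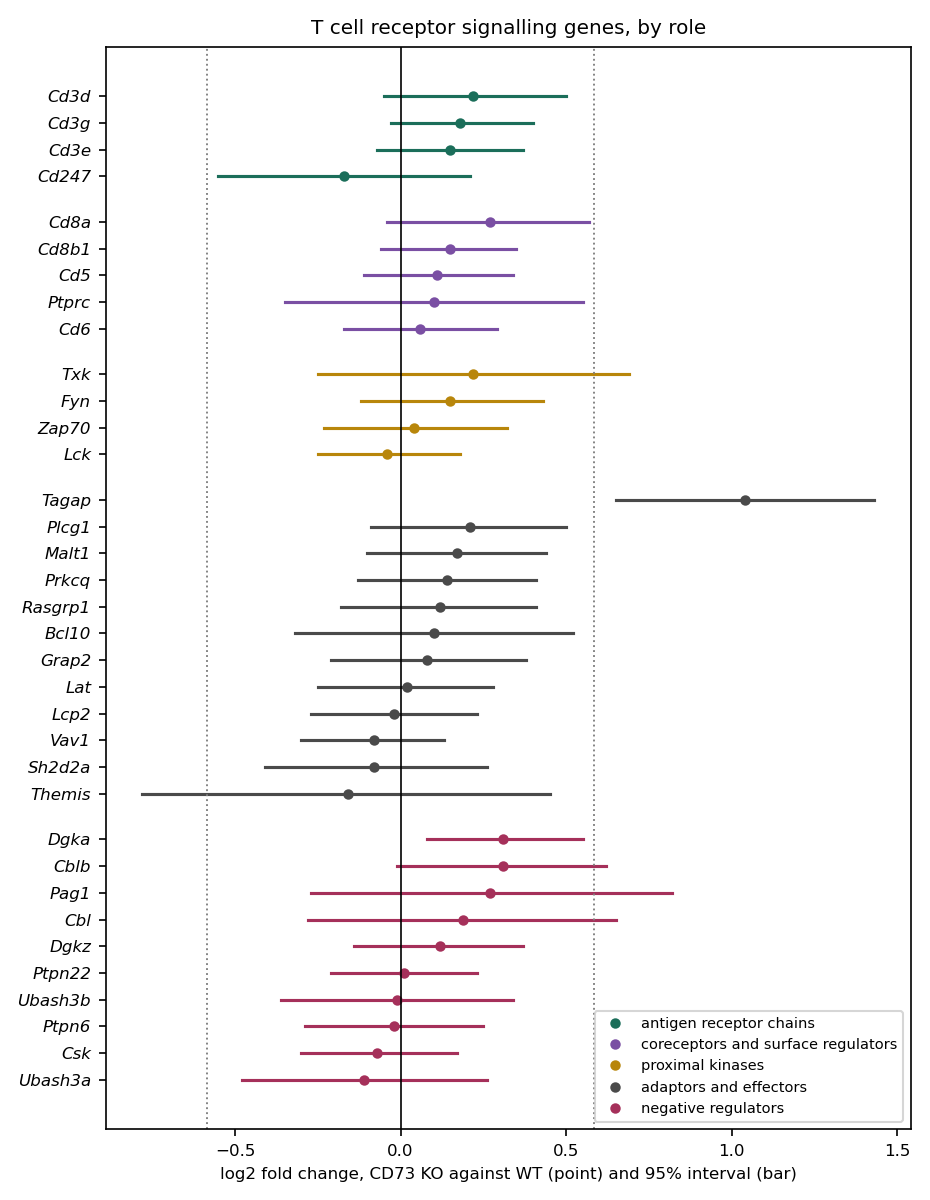
Log2 fold change of each of the 35 genes, CD73 KO against WT (x axis), with its 95% interval, grouped by role; dotted lines mark 1.5-fold in either direction. Tagap stands alone at 1.04, and 29 intervals lie between the dotted lines.

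Tagap, which encodes a GTPase-activating protein that is induced when T cells are activated, showed the largest difference of the 35. It lies on chromosome 17, 7926000 to 7934897, plus strand, in the mm10 build. Its level was 97.8, 66.2 and 73.5 CPM in CD73 KO replicates 1 to 3. The WT libraries had 33.3, 35.8 and 47.1 CPM. Every CD73 KO library was above every WT library, and the lowest CD73 KO value was well clear of the highest WT value. The means were 79.2 ± 16.5 and 38.7 ± 7.38 CPM (SD, n = 3). The log2 fold change was 1.04 ± 0.18 (SE), a fold of 2.06 with a 95% interval of 1.57 to 2.70. It missed the adjusted threshold in edgeR (adjusted p = 0.135, unadjusted p = 0.000127). DESeq2 called it (adjusted p = 3.96e-05, with 0.786% of its genes called), and so did edgeR without a filter on low counts (adjusted p = 6.87e-11, 1.40% called). Over fits that each left out a library the log2 fold change ran from 0.85 to 1.20 and the adjusted p of edgeR from 0.0521 to 0.613. Without the library labelled WT replicate 2 they were 0.98 and 0.613.

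Counts of Tagap are uncertain because the mouse genome holds a near-identical copy, Tagap1 (chromosome 17, 6955011 to 6961156, minus strand). The GENCODE transcripts of both genes aligned over 2149 bases at 99.2% identity, with 18 mismatches. Of all stretches of 50 bases in the Tagap transcript, 47.6% occur unchanged in Tagap1, and of stretches of 100 bases, 31.9%. The read length is not given in the sources used here. A part of the coding sequence, bases 1005 to 1094 of Tagap counted from the A of its start codon, shows how few letters tell the copies apart. No stretch of 90 coding bases aligned without a gap held more than these 2 mismatches, and the capitals mark them.
Tagap: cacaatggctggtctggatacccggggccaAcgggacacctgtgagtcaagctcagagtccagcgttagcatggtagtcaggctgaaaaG
Tagap1: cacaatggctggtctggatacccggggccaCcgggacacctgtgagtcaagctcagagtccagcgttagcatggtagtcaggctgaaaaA

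Tagap1 had 27.1, 25.2 and 34.1 CPM in CD73 KO, beside 20.1, 20.5 and 31.6 CPM in WT, and the groups overlapped. Its log2 fold change was 0.26 ± 0.20 (SE, adjusted p = 0.685). Tagap took 78.3%, 72.5% and 68.3% of the counts of both genes in CD73 KO and 62.3%, 63.6% and 59.9% in WT. Those shares did not overlap (exact permutation p = 0.1, two-sided, the smallest that 3 against 3 allows). When both genes were counted as 1, their summed level was 125, 91.3 and 108 CPM in CD73 KO, beside 53.4, 56.2 and 78.7 CPM in WT. The groups still did not overlap, and the log2 fold change was 0.79 ± 0.17 (SE) with an adjusted p of 0.242 in edgeR. Tagap also shares 716 exon bases with an antisense gene, E430024P14Rik, which had 1 to 8 counts.

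**Figure D2:**
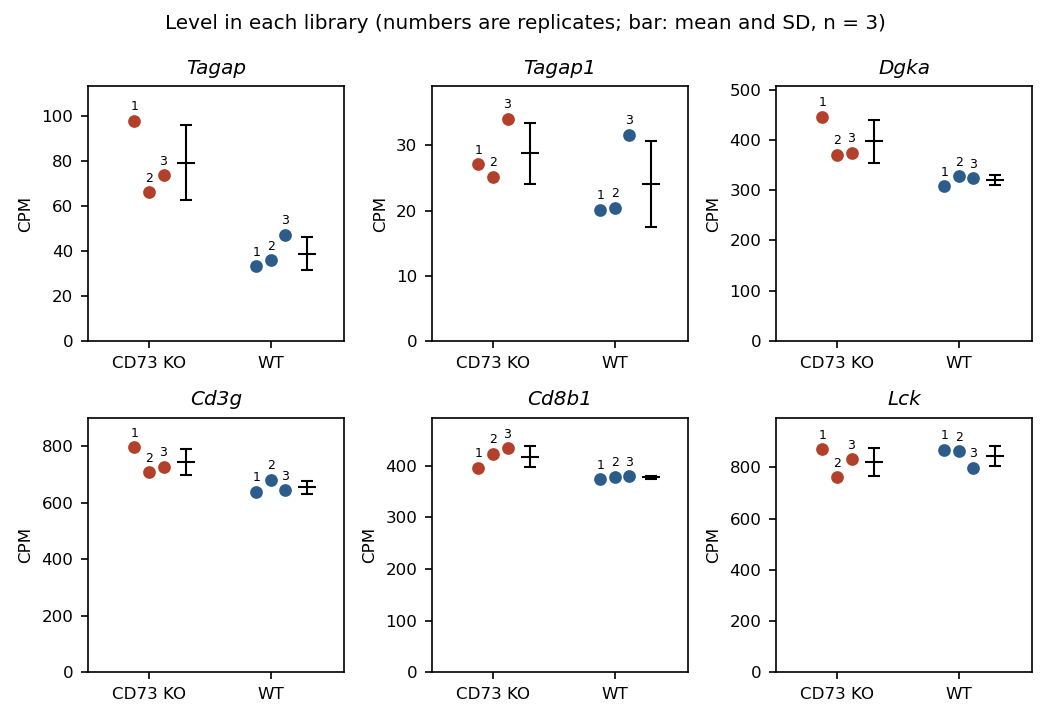
Level in CPM (y axis, from 0) in each library, numbered by replicate, with the mean and SD of each genotype (n = 3). Tagap, Dgka, Cd3g and Cd8b1 do not overlap between genotypes, while Tagap1 and Lck do.

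The window around the Tagap start carries the gene's proximal promoter letters and is shown for that reason. Windows come from RefSeq on GRCm38.p6, from 250 bases before the start to 50 after it, and 30 of the 35 genes had one or more (43 windows). Capitals mark matches, on either strand, to short words: RUNX (TGTGGT), ETS (CCGGAAG), NFAT (GGAAA), E-box (CAGGTG), the GC box (letters GGGCGG), the TATA box (letters TATAAA), the AP-1 word (letters TGANTCA) and the CRE word (letters TGACG). A capital run can hold overlapping words. The windows of Cd3g and Cd3d are set beside it because those 2 genes start 1355 bases apart and are read in opposite directions.
Tagap, chr17:7925750-7926049, plus strand: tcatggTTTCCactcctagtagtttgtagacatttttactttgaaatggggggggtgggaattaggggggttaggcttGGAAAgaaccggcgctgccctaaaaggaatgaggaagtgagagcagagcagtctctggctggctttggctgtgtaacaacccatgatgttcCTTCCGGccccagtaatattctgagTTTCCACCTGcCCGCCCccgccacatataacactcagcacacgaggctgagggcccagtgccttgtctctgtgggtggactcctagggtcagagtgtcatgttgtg
Cd3g, chr9:44980382-44980681, minus strand: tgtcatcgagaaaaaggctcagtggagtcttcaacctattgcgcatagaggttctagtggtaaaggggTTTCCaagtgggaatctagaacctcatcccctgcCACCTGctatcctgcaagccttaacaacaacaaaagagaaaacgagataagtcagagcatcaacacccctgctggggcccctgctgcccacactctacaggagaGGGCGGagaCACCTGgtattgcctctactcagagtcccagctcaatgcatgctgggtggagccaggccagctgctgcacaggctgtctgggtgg
Cd3d, chr9:44981536-44981835, plus strand: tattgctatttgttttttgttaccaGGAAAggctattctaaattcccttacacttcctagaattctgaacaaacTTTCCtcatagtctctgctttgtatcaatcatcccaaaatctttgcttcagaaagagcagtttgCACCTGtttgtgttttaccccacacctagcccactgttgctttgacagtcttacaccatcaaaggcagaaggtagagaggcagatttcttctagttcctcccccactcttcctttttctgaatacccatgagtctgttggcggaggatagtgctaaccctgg

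All 3 windows shown hold the E-box word, which was in 15 of the 30 members with a window. Dgka, whose windows are not shown, did not have it. By window that is 39.5% of the members' windows, beside 20.2% of all 32851 RefSeq windows of the same length. The NFAT word was in 72.1% of members' windows and 61.3% of all, the GC box in 44.2% and 35.7%, and the ETS word in 4.65% and 8.86%. RUNX was in 11.6% and 16.8%, CRE in 11.6% and 20.8%, TATA in 6.98% and 13.6%, and AP-1 in 0% and 7.81%. These are letter matches only. Cd6, Cd8b1, Malt1, Pag1 and Sh2d2a had no entry.

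The invariant chains of the receptor did not pass the test. Cd3d, Cd3e and Cd3g encode the CD3 chains that assemble with the antigen-binding chains, and Cd247 encodes the zeta chain with the most tyrosine motifs. Cd3g had 796, 707 and 727 CPM in CD73 KO, beside 638, 681 and 643 CPM in WT. Every CD73 KO library was higher, and the log2 fold change was 0.18 ± 0.10 (SE, edgeR adjusted p = 0.568). Without the library labelled WT replicate 2 it was 0.21. Cd3e was at 605, 535 and 572 CPM in CD73 KO, beside 539, 519 and 485 CPM in WT, and the groups overlapped narrowly. Cd3d varied more within CD73 KO, at 563, 404 and 506 CPM, than within WT, at 424, 412 and 428 CPM. Its log2 fold change of 0.22 ± 0.12 (SE) was 0.34 without CD73 KO replicate 2, its lowest library, and 0.10 without CD73 KO replicate 1, its highest. Leaving out the library labelled WT replicate 2 gave 0.20. Cd247 had 186, 128 and 160 CPM in CD73 KO, beside 186, 207 and 140 CPM in WT, a log2 fold change of -0.17 ± 0.17 (SE). Leaving out 1 library moved it to -0.04 (CD73 KO replicate 2), to -0.05 (the library labelled WT replicate 2), or to -0.31 (CD73 KO replicate 1 or WT replicate 3). Its counts are uncertain, since 56.43% of its exon bases are also exon of Pou2f1 on the opposite strand and the strand setting of the counting is not given in the sources used here. Pou2f1 had 265 to 789 counts against 983 to 3493 for Cd247. In bulk RNA, fewer cells of a type and less RNA per cell cannot be told apart.

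Among coreceptors and surface regulators all 5 fold changes were above 0, and none passed. Cd8b1, the beta chain of the coreceptor, was the steadiest of them within WT, at 373, 379 and 380 CPM, and had 396, 423 and 434 CPM in CD73 KO. The groups did not overlap, and the log2 fold change was 0.15 ± 0.09 (SE, edgeR adjusted p = 0.638). Cd8a, the alpha chain, had 797, 997 and 1118 CPM in CD73 KO, beside 837, 702 and 880 CPM in WT. CD73 KO replicate 1 lay inside the WT range, and without it the log2 fold change of 0.27 was 0.39. Without the library labelled WT replicate 2 it was 0.17 for Cd8a and 0.14 for Cd8b1. Cd5 and Cd6, scavenger-type receptors that tune the signal, had log2 fold changes of 0.11 ± 0.10 and 0.06 ± 0.11 (SE). Ptprc encodes CD45, the phosphatase that keeps Lck ready, and was the most counted member, with 2433, 1889 and 1425 CPM in CD73 KO, beside 1955, 1982 and 1432 CPM in WT. Replicate 3 was the lowest in both genotypes, and the log2 fold change was 0.10 ± 0.20 (SE). Leaving out CD73 KO replicate 1 turned it to -0.12, and leaving out WT replicate 3 turned it to -0.04. Leaving out CD73 KO replicate 3 gave 0.27, and it was 0.17 with the library labelled WT replicate 2 left out.

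None of the 4 kinases nearest the receptor passed, and their groups all overlapped. Lck, which starts the signal, had 870, 763 and 832 CPM in CD73 KO, beside 869, 863 and 800 CPM in WT. The libraries were interleaved, and the highest was 1.14 times the lowest. Its log2 fold change of -0.04 ± 0.10 (SE) had a 95% interval of the fold from 0.838 to 1.13. Zap70, the kinase that binds phosphorylated CD3 and zeta chains, had 244, 212 and 285 CPM in CD73 KO, beside 258, 233 and 227 CPM in WT, an interval of the fold from 0.853 to 1.25. Fyn, another Src family kinase of T cells, had means of 238 ± 21.2 and 215 ± 30.7 CPM (SD, n = 3) in CD73 KO and WT. Txk, a Tec family kinase, was scarce at 12.7 to 25.4 CPM, and its interval of 0.842 to 1.61 was wider.

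The adaptors and effectors other than Tagap had log2 fold changes from -0.16 to 0.21. Lcp2, the most counted of the group, was at 432, 492 and 398 CPM in CD73 KO, beside 429, 493 and 421 CPM in WT. Replicate 2 was the highest in both genotypes, and the means were 441 ± 47.9 and 448 ± 39.4 CPM (SD, n = 3). Lat, the membrane scaffold, had a log2 fold change of 0.02 ± 0.12 (SE), and Grap2, which joins Lat to Lcp2, had 0.08 ± 0.14. Vav1, a guanine nucleotide exchange factor, varied least over the 6 libraries of all 35 genes, from 165 to 185 CPM, a coefficient of variation of 4.57%. Plcg1 had 171, 189 and 167 CPM in CD73 KO, beside 159, 124 and 174 CPM in WT, and only the library labelled WT replicate 2 stood low. Its log2 fold change was 0.21 ± 0.13 (SE, edgeR adjusted p = 0.643), and 0.07 without that library.

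Genes of the NF-kB and Ras arms did not pass either. Log2 fold changes were 0.14 ± 0.12 for Prkcq, 0.10 ± 0.19 for Bcl10, 0.17 ± 0.12 for Malt1 and 0.12 ± 0.13 for Rasgrp1 (SE). With 1 library left out they ran from 0.02 to 0.19 for Prkcq, from -0.18 to 0.23 for Bcl10, from 0.08 to 0.28 for Malt1 and from 0.03 to 0.26 for Rasgrp1. The lowest values came without CD73 KO replicate 1 for Prkcq, Bcl10 and Rasgrp1, and with CD73 KO replicate 2 left out for Malt1. Bcl10 had 79.6, 48.9 and 50.0 CPM in CD73 KO replicates 1 to 3, and its sign turned without replicate 1. Prkcq, like Cbl, carries stretches of 200 or more bases at 95% identity or higher to transcripts of many other genes, so their counts may hold or lose shared reads. Sh2d2a, an adaptor that binds Lck, had -0.08 ± 0.15. Themis, a regulator of signal strength in developing T cells, was spread widely within both genotypes: 174, 209 and 109 CPM in CD73 KO, beside 133, 215 and 204 CPM in WT. The interval of its fold ran from 0.583 to 1.37, so these libraries bounded its fold only loosely.

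Of the 10 negative regulators 6 had fold changes above 0 and 4 below, and none passed. Dgka, a kinase that removes diacylglycerol and so limits Ras activation, had 446, 371 and 375 CPM in CD73 KO. It had 308, 328 and 323 CPM in WT, and the groups did not overlap. The means were 397 ± 42.5 and 320 ± 10.2 CPM (SD, n = 3). The log2 fold change was 0.31 ± 0.11 (SE). The unadjusted p was 0.0135 and the adjusted p in edgeR 0.400. Without the library labelled WT replicate 2 the log2 fold change was 0.33, and over fits that left out a library it ran from 0.21 to 0.36 with adjusted p from 0.231 to 0.999. Dgkz, its relative, had 594, 608 and 718 CPM in CD73 KO, beside 591, 530 and 651 CPM in WT, and the groups overlapped.

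Cblb, a ubiquitin ligase that sets the threshold for activation, was at 489, 506 and 354 CPM in CD73 KO, beside 357, 401 and 332 CPM in WT. CD73 KO replicates 1 and 2 were above all WT libraries and replicate 3 was not. The log2 fold change was 0.31 ± 0.14 (SE, edgeR adjusted p = 0.520), and leaving out a CD73 KO library gave 0.23 (replicate 1), 0.21 (replicate 2) or 0.45 (replicate 3). With the library labelled WT replicate 2 left out it was 0.38. Cbl, the related ligase, was also lowest in replicate 3 within CD73 KO, at 277, 258 and 159 CPM, with WT at 236, 172 and 203 CPM. Its log2 fold change of 0.19 ± 0.20 (SE) ran from 0.03 (without CD73 KO replicate 1) to 0.39 (without CD73 KO replicate 3), and it was 0.07 with the library labelled WT replicate 2 left out. Of the phosphatases, Ptpn22 ranged from 309 to 356 CPM over all 6 libraries. Ptpn6, which encodes SHP-1 and was the most counted of the 10, had 515, 650 and 709 CPM in CD73 KO, beside 654, 606 and 641 CPM in WT. CD73 KO replicate 1 lay below the WT range of Ptpn6, replicate 2 inside it and replicate 3 above it. Csk, which shuts off Src family kinases, had a log2 fold change of -0.07 ± 0.11 (SE), with 0.27 ± 0.24 for Pag1, the membrane anchor of Csk. Ubash3a and Ubash3b, phosphatases that act on Zap70 and related kinases, had -0.11 ± 0.17 and -0.01 ± 0.16.

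In all, 4 of 35 genes had groups that did not overlap (11.4%, against 15.2% of all tested genes), and in each of the 4, Cd3g, Cd8b1, Tagap and Dgka, CD73 KO was higher. Higher without overlap held for 7.59% of all tested genes and lower for 7.60%. Of the 7359 tested genes in the members' range of mean level, 448 were higher without overlap and 725 lower. The 35 genes together took 1.28% to 1.32% of counts in the CD73 KO libraries and 1.18% to 1.23% in the WT libraries. Summed over the list, the level was 12977.9 ± 568 CPM for CD73 KO, beside 12102.7 ± 436 for WT (SD, n = 3). The groups lay close, with 12554.1 CPM in CD73 KO replicate 3 and 12431.1 CPM in WT replicate 1. The library labelled WT replicate 2 had 12268.4 CPM. Genes with many counts weigh most in this sum. The members were chosen with earlier results known and sums of other lists were not computed, so no test is read from it. Of the 35, 17 were highest in CD73 KO replicate 1.

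The balance between partners was compared within libraries, where scaling cancels out. Across 6 pairs none of the log2 ratios separated the genotypes (each adjusted p = 0.6 by exact permutation tests, two-sided, Benjamini-Hochberg over 6; the smallest unadjusted p possible is 0.1). The log2 ratio of counts of Lck to Fyn was 1.79 ± 0.06 in CD73 KO and 1.98 ± 0.16 in WT (SD, n = 3). With all 6 libraries Cd3e to Cd247 gave the widest difference, 1.87 ± 0.18 against 1.55 ± 0.23, and the groups overlapped. The counts of Cd247 are uncertain because of the exon bases shared with Pou2f1. Cd8a to Cd8b1 was 1.20 ± 0.18 and 1.09 ± 0.17. Dgka to Dgkz was -0.69 ± 0.26 and -0.88 ± 0.16, Cbl to Cblb -0.98 ± 0.17 and -0.84 ± 0.33, and Ubash3a to Ubash3b -0.40 ± 0.23 and -0.29 ± 0.24. Without the library labelled WT replicate 2 the widest difference, CD73 KO minus WT, was -0.32, for Cbl to Cblb. Dgka to Dgkz then differed by 0.29, Cd3e to Cd247 by 0.20 and Lck to Fyn by -0.15. Cd8a to Cd8b1 differed by 0.02 and Ubash3a to Ubash3b by -0.04.

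Levels of different genes were compared per length, as CPM per kb of all annotated exons. Over all 6 libraries Lck had the highest mean, 284 CPM per kb, with 280.5 ± 18.6 in CD73 KO and 288 ± 13.1 in WT (SD, n = 3). In CD73 KO alone Cd8b1 was as high, at 282 ± 13.2. Cd8b1, Cd3d and Cd8a followed with means over all 6 libraries of 268, 251 and 244 CPM per kb, and their ranges over libraries overlapped each other and that of Lck. Ptpn6 and Cd3g came next at 225 and 214, again overlapping. There was then a gap to Cd3e at 133, whose highest library (148) was below the lowest of Ptpn6 (184). The zeta chain gene Cd247, at 31.5 CPM per kb, was below Cd3e in every library, with ratios per length from 3.28 to 5.47. Its level per kb is uncertain, because 56.43% of its exon bases are also exon of Pou2f1 and reads there may not have been counted. Zap70 was at 81.3 and Lat at 101, while Malt1 and Bcl10 were at 11.3 and 12.6. Txk and Pag1 were lowest at 1.77 and 2.47 CPM per kb, and their ranges overlapped. Cd8a and Cd8b1 were near equal per length, with ratios from 0.756 to 1.05.

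Annotated exons include stretches that these cells may not use, which bears on the order. With the length of the longest coding transcript instead, 9 of the 10 highest genes stayed among the 10 highest, but Cd3g led (683 CPM per kb), followed by Lck (381), Cd3e (371) and Ptprc (365). Cd247 was at 56.7, from the same uncertain counts. Txk and Pag1 remained the lowest pair, at 8.26 and 2.86.

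**Figure D3:**
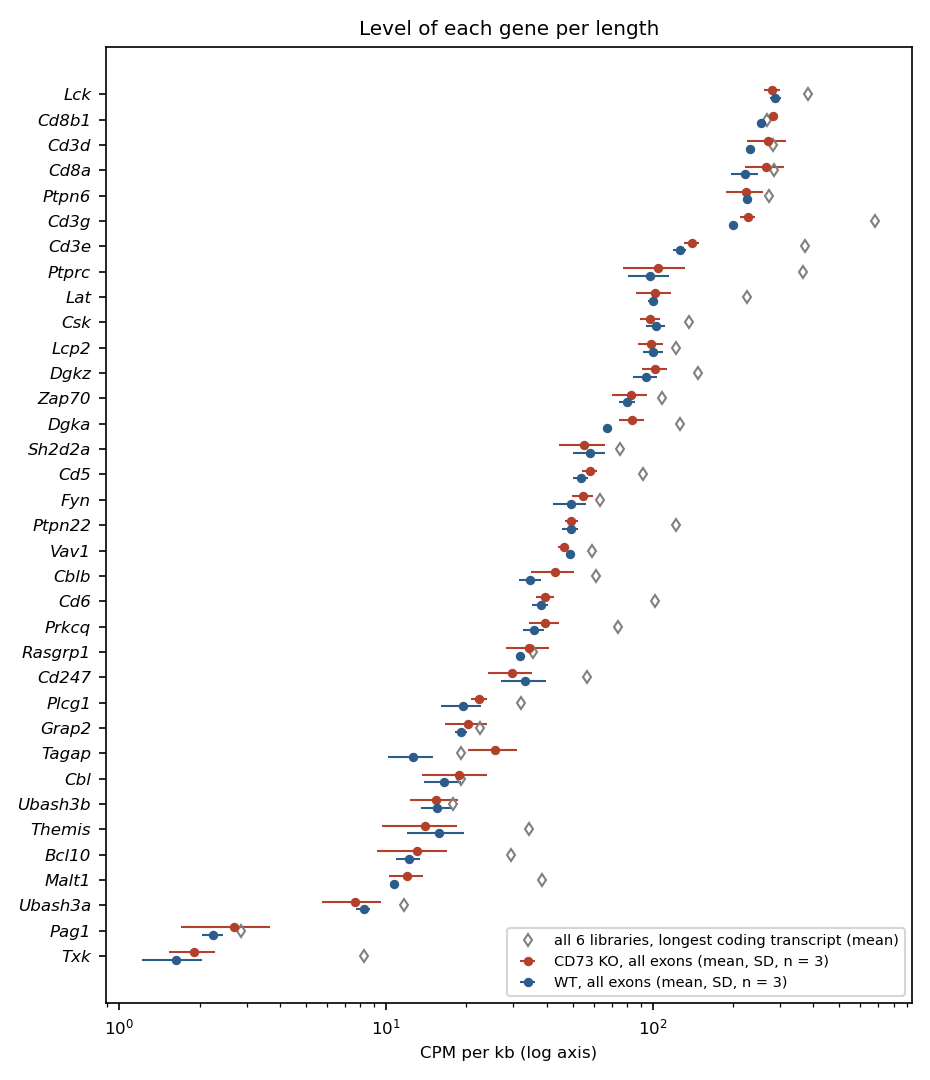
Level of each gene in CPM per kb (log x axis) as mean and SD for CD73 KO and WT (n = 3) with all exons as length, and as grey diamonds with the longest coding transcript. Averaged over all 6 libraries Lck leads by the first measure (in CD73 KO it is level with Cd8b1) and Cd3g by the second, and Txk and Pag1 lie lowest by both.

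The longest members deviated from their genotype's mean in the same direction in some libraries. Among the 8 genes with over 9 kb of exon (Ptprc, Malt1, Cbl, Themis, Ubash3a, Txk, Cblb and Pag1), 7 were below the CD73 KO mean in CD73 KO replicate 3, with a median of -0.36 on the log2 scale. Of these 8, 7 were above that mean in CD73 KO replicate 1 and 7 in replicate 2. Since the mean is that of 3 libraries, low values in 1 of them raise the deviations of the others, and opposite signs within a genotype are not separate observations. The 6 genes under 3 kb (Cd8b1, Cd3d, Lat, Ptpn6, Lck and Zap70) were all above the mean in CD73 KO replicate 3, by a median of 0.12. Across the 35 genes, which share each library's RNA and depth and so are not independent, Spearman's rho between exon length and the deviation was -0.55 in CD73 KO replicate 3 and 0.56 in replicate 2. Over 12222 tested genes it was -0.30 and 0.28. In CD73 KO replicate 1 it was 0.23 over the members and 0.05 over all these tested genes. In WT replicates 1 to 3 the members gave 0.04, 0.43 and -0.21, and all these tested genes 0.13, -0.10 and -0.04. With the longest coding transcript as length the members' values for CD73 KO replicates 3 and 2 were -0.41 and 0.67. CD73 KO replicate 1 then gave 0.05, and WT replicates 1 to 3 gave -0.09, 0.09 and 0.03. The limits of 9 and 3 kb were set after seeing the values.

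The number of members with a low p depended on the libraries used. Without CD73 KO replicate 3, 7 of 35 had an unadjusted p under 0.05 (against 14.0% of all tested genes in that fit), and all 7 were higher in CD73 KO: Tagap, Dgka, Cblb, Cbl, Malt1, Rasgrp1 and Pag1. Of the 5 added, all but Rasgrp1 have over 9 kb of exon. Log2 fold changes in that fit were 0.45 for Cblb, 0.39 for Cbl, 0.51 for Pag1, 0.28 for Malt1 and 0.26 for Rasgrp1, and none passed the adjusted threshold. Without WT replicate 1 the count was 1 of 35, Tagap (2.86%, against 6.17%). Without the library labelled WT replicate 2 it was 3, Tagap, Dgka and Cblb (8.57%, against 4.48%), and without CD73 KO replicate 2 it was also 3, now Tagap, Dgka and Cd3d (against 9.12%). Without CD73 KO replicate 1 it was 2, Tagap and Cd8a (5.71%, against 8.4%), and without WT replicate 3 it was 2, Tagap and Dgka (5.71%, against 11.6%). With no filter on low counts it was 4, Tagap, Dgka, Cblb and Cd8a (against 8.63%). The part of transcript length in these results was not tested.

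**Figure D4:**
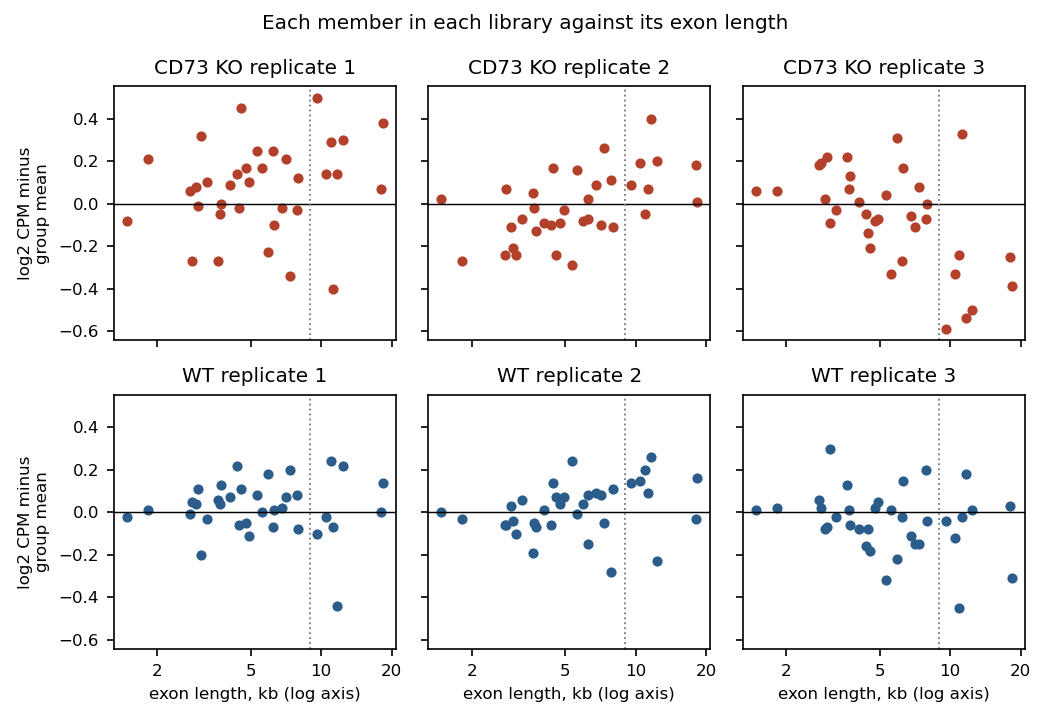
Deviation of each of the 35 genes from its genotype's mean (y axis, log2 CPM) against its exon length in kb (log x axis), 1 panel per library; the dotted line marks 9 kb. In CD73 KO replicate 3, 7 of the 8 genes right of the line lie below 0.

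Other genes of the same pathway were read from a list of 64. Of these, 62 were tested, and the adaptor genes Shb and Trat1 were too low, with at most 6 counts. None passed the adjusted threshold in edgeR, and 4 had an unadjusted p under 0.05, 2 in each direction, against 9.64% of all tested genes. The 62 had a median log2 fold change of 0.05, with 39 above 0. Nck1, an adaptor linking the receptor to actin, had 18.3, 25.8 and 22.7 CPM in CD73 KO, beside 15.6, 14.9 and 15.5 CPM in WT, a log2 fold change of 0.54 ± 0.17 (SE, edgeR adjusted p = 0.368). Lax1, an inhibitory scaffold, had 0.43 ± 0.17 and Sos1, a Ras exchange factor, 0.34 ± 0.16. On the lower side Itpr1, a calcium release channel, had 51.5, 67.9 and 57.6 CPM in CD73 KO, beside 75.0, 68.5 and 82.4 CPM in WT, a log2 fold change of -0.35 ± 0.13 (SE, edgeR adjusted p = 0.453). Akt1 had -0.25 ± 0.10 and Hras -0.26 ± 0.17.

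Markers of other cells were read in the same libraries. Lyz2, Csf1r, C1qa, C1qb and Spi1 of the myeloid list, Ms4a1 and Pax5 of the B cell list, and Siglech, Xcr1 and Clec9a of the dendritic list had 0 counts in all 6, which allows up to 0.160 to 0.427 CPM per library. Summed levels were 72.9 to 91.0 CPM in CD73 KO, beside 48.3 to 64.4 CPM in WT for the 10 myeloid genes, led by Ctss, and 67.0 to 105 and 47.1 to 63.7 CPM for the 7 stromal genes, led by Pecam1, of which Col1a2, Col3a1 and Cdh5 had 0 counts. The 8 NK cell genes, led by Klrd1, summed to 436 to 495 CPM in CD73 KO, beside 387 to 418 CPM in WT. These 3 sums did not overlap between genotypes, as with Tagap and Dgka, and their part in those differences was not tested. Of the listed genes that passed the filter, 1 of 1 myeloid, 2 of 2 stromal and 2 of 4 NK cell genes were higher in CD73 KO. So were 3 of 3 B cell and 1 of 3 gamma-delta T cell genes, but 0 of 1 dendritic and 0 of 2 CD4 T cell genes. In bulk RNA such sums do not tell which cells gave the RNA. The 9 B cell genes, led by Ighm, summed to 779 to 868 and 710 to 783 CPM, and the 4 gamma-delta T cell genes, led by Trdc, to 95.9 to 118 and 87.6 to 105. The 7 dendritic genes, led by Batf3, summed to 5.59 to 8.76 and 8.32 to 20.5 CPM, and the 4 CD4 T cell genes, led by Zbtb7b, to 24.3 to 28.3 and 28.1 to 35.5. Of the 6 erythroid genes, 5 had 0 counts in all 6 libraries. No gene of these lists passed the adjusted threshold in edgeR.

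Of the 35 genes, 6 share chromosome 9 with Nt5e: Cd3d, Cd3e, Cd3g, Cbl, Ubash3b and Csk. They lie 30.7 to 47.2 Mb from it. Their log2 fold changes ran from -0.07 (Csk) to 0.22 (Cd3d).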

How the data were processed

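Per the labels' protocols, libraries came from total RNA with a stranded kit. The authors deposited raw counts of reads per Ensembl gene, 1 column per library; the submitters' processing notes name fastp, HISAT2, featureCounts and mm10, with versions, strand setting and annotation release not given in the sources used here. Symbols were found for 49326 of 49671 identifiers. Coordinates, exon lengths and overlaps come from GENCODE M21 (GRCm38, the assembly of mm10), promoters from RefSeq, and copies from blastn 2.17.0 (at least 95% identity over 200 bases).

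In R 4.3.3, filterByExpr kept genes by a minimum count of 10 and a minimum total of 15. The remaining 12242 were scaled by TMM and tested with the quasi-likelihood F-test of edgeR 4.0.16 (robust, legacy fit). Benjamini-Hochberg adjustment ran over all of them, with a threshold of 0.05. A standard error is the log2 fold change divided by the square root of F; 95% intervals use the fit's t distribution. Ratios used a pseudocount of 0.5 counts and scipy 1.17.1. Alternatives were RLE factors, library size alone, 2 other filters, DESeq2 1.42.0, limma-voom (limma 3.58.1), the newer edgeR fit, a fit that was not robust, a replicate block, thinning to 6934150 counts and each library left out. The fit was tested on simulated data. The 95% intervals include the spread between libraries, while floors (3 counts) cover counting error only.

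All 35 members are named. Values in every library were given for members at an unadjusted p under 0.05, members without overlap and the most counted member of each role. Of the other pathway genes, the 3 of smallest p in each direction are named. Other values were chosen after they were seen. The members and lists were chosen with earlier results of these data known. The sum of Tagap and Tagap1, the second length measure and the promoter words were chosen after seeing the data.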

Additional observations from a re-analysis of the deposited data

How the results depend on the processing

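Of the 35 genes, 20 kept the sign of their fold change under all 16 alternatives (17 higher, 3 lower in CD73 KO), Tagap, Dgka, Cblb and the CD3 chains among them. The number of genes called, 7 of 12242, was 298 without a filter on low counts and 98 with DESeq2, and 4 to 8 over fits that left out a library. The number of members called went from 0 to 1 (Tagap) in both of the first; the cause was not tested. Members higher at an unadjusted p under 0.05 numbered 4 without a filter (Tagap, Dgka, Cblb and Cd8a; 8.63% of all genes in that fit) and 1 to 7 with a library left out. With a library left out, the median log2 fold change ran from 0.04 to 0.15 and members above 0 from 23 to 28. Members without overlap ran from 5 to 12, but fewer libraries make overlap less likely. The share of all tested genes without overlap in those fits is not given here, so that range says nothing particular to the members. Ubash3b was 0.01 with library size alone and Ptpn22 -0.01 after thinning. Leaving out libraries turned these log2 fold changes: Bcl10 (-0.18 to 0.23), Cd6 (-0.01 to 0.12), Grap2 (-0.06 to 0.21), Lat (-0.08 to 0.13), Lck (-0.09 to 0.01), Lcp2 (-0.11 to 0.05), Pag1 (-0.02 to 0.51), Ptpn22 (-0.04 to 0.05), Ptpn6 (-0.12 to 0.09), Ptprc (-0.12 to 0.27), Sh2d2a (-0.25 to 0.03), Themis (-0.38 to 0.06), Ubash3a (-0.29 to 0.07), Ubash3b (-0.14 to 0.14) and Zap70 (-0.07 to 0.14). Differences of the 6 log2 ratios kept their sign in all 7 of their alternatives.

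Deviations of same-numbered libraries had correlations of 0.15, -0.17 and 0.0137, and those of other pairs ran from -0.319 to 0.358. Being deviations from means of 3 libraries, they cannot decide whether the numbers pair the samples. With the replicate block 5 genes were called, 0 of them members, and the members' median was 0.10. Cblb joined Tagap and Dgka at an unadjusted p under 0.05 in edgeR, which made 3 of 35 members. In that fit 1230 of the 12242 tested genes had such a p.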
